A study of Homo sapiens with 6 samples.

Results

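The genes of the hemidesmosome and its anchorage were followed in L3.6pl cells sorted for low (L1low) or high (L1high) surface L1CAM. They were taken by symbol from the count table and are the 9 genes COL17A1, ITGA6, ITGB4, DST, PLEC, CD151, LAMA3, LAMB3 and COL7A1, out of 19469 genes with counts. L3.6pl is an established human pancreatic cancer line that the labels place under pancreatic adenosquamous carcinoma. The sample titles name this line, while 1 label field writes L6.6pl. All 6 libraries came from untreated cells of this line grown in DMEM with serum, with 3 libraries labelled L1CAM_POSITIVE (called L1high here) and 3 labelled L1CAM_NEGATIVE (L1low). The sort divides the cells of this line by their surface level of L1CAM, a neural cell adhesion molecule, without altering any gene. The labels do not say whether the libraries came from separate cultures or sorts, and p-values then measure the spread between these libraries, which may be technical.

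Hemidesmosomes are the junctions by which basal epithelial cells hold on to the basement membrane. In the membrane, integrin α6β4 (ITGA6 and ITGB4), the transmembrane collagen XVII (COL17A1) and the tetraspanin CD151 face the matrix. Inside the cell, plectin (PLEC) and the epithelial form of dystonin (DST) tie them to keratin filaments. Outside, α6β4 binds laminin-332, which holds the chains encoded by LAMA3 and LAMB3, and collagen VII (COL7A1) forms the anchoring fibrils that fasten the basement membrane to the tissue beneath. Inherited loss of these proteins causes skin blistering, and α6β4 is also known in carcinoma cells outside of hemidesmosomes, where it takes part in migration.

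Library totals ran from 16334610 to 21064685 counts on genes. The sorting marker checked the labels, since L1CAM stood at 84.0, 69.8 and 89.5 CPM (a gene's counts scaled to 1e6 counts per library, with TMM factors) in L1high replicates 1, 2 and 3 and at 17.7, 23.7 and 20.0 CPM in L1low replicates 1, 2 and 3. All 6 epithelial marker genes were present, of which KRT19 was called higher and EPCAM lower in L1low cells. EPCAM stood at 237 ± 26.9 CPM in L1high and 193 ± 6.99 CPM in L1low cells (SD, n = 3), only just within the limit for a call (edgeR adjusted p = 0.0496). Basal markers were present too, and of the 8 listed, 4 were higher and 1 (KRT6A) was lower in L1low cells. TP63, the transcription factor of basal epithelium, stood at 299 ± 15.9 CPM in L1high and 650 ± 31.0 CPM in L1low cells (SD, n = 3). Of 9 fibroblast markers only LUM and COL3A1 had a row among the genes analysed, with a summed level between 79.9 and 90.8 CPM in L1high and between 131 and 151 CPM in L1low libraries, nearly all of it LUM. DCN, PDGFRA, PDGFRB, THY1 and FAP had none, and neither did any neural marker, 4 of 5 endothelial or 4 of 5 leukocyte markers. The part of these shifts in the results below was not tested. In bulk RNA, fewer cells that express a gene and less RNA of it per cell cannot be told apart.

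Of the 9 genes, 6 were called higher in L1low cells (COL17A1, COL7A1, ITGB4, LAMB3, PLEC and ITGA6) and 0 lower, where 4.58% of the 19467 genes tested were called higher and 3.37% lower. Calls were made with edgeR (quasi-likelihood fit) where the Benjamini-Hochberg p over all genes tested was under 0.05. DST, CD151 and LAMA3 were not called. The 9 genes, COL17A1 among them, were chosen with earlier results of these data known, so the shares over all genes are given as description only. The median log2 fold change (L1low over L1high) of the 9 genes was 0.51, beside -0.01 over all genes tested. In 8 of the 9 genes every L1low library lay above every L1high library, where this held for 15.2% of all genes tested and 28.8% did not overlap in either direction. With the replicate number as a block these calls stayed at 6 higher and 0 lower, beside 6.27% of all genes called higher and 5.87% lower in that fit, in which the calls over all genes went from 1548 to 2363. PLEC was the least certain of the 6, since its call was lost without L1high replicate 1 (edgeR adjusted p = 0.057) and without L1low replicate 2 (0.11).

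**Figure D1:**
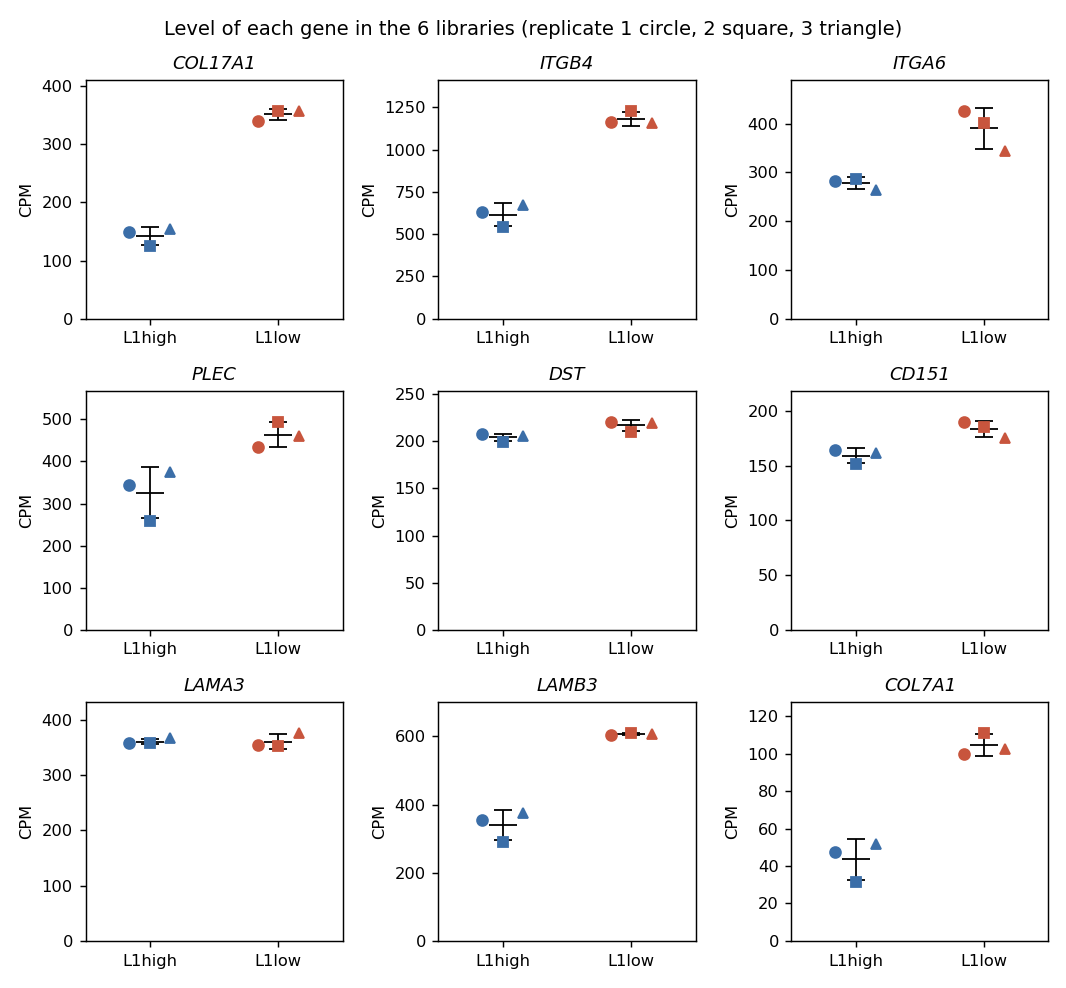
Level of each of the 9 genes in CPM (vertical axes from 0) in the 3 L1high (blue) and 3 L1low (red) libraries, with the mean and SD as black bars and the replicate number as the symbol. COL17A1 runs from 125 to 154 CPM in L1high and from 340 to 357 CPM in L1low libraries, and LAMA3 is the gene whose groups overlap.

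Among the membrane parts, collagen XVII had the largest difference. COL17A1 (ENSG00000065618, chr10:104031286-104085880, minus strand, GRCh38) stood at 149, 125 and 154 CPM in L1high replicates 1, 2 and 3 and at 340, 357 and 357 CPM in the L1low replicates. The lowest L1low library thus lay well above the highest L1high library, and the mean was 2.46-fold higher in L1low cells. Its log2 fold change was 1.30 (standard error 0.08, edgeR adjusted p = 4.69e-06) and stood at percentile 99.7 of all genes tested. The microRNA gene MIR936 lies inside COL17A1 on the same strand and had 20 to 49 counts per library in L1high and 70 to 93 in L1low cells, with a log2 fold change of 1.32 that cannot be told apart from that of its host.

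ITGB4 (ENSG00000132470, chr17:75721328-75757818, plus strand) encodes the β4 chain, whose long cytoplasmic tail binds plectin and which pairs with no other α chain than α6. It stood at 632, 540 and 672 CPM in L1high replicates 1, 2 and 3 and at 1161, 1230 and 1158 CPM in the L1low replicates. The groups were far apart, with a 1.93-fold higher mean in L1low cells (log2 fold change 0.95, standard error 0.08, edgeR adjusted p = 2.48e-05). GALK1, which overlaps ITGB4 on the opposite strand, held 300 to 413 counts per library against at least 11029 for ITGB4, and was not called (log2 fold change -0.25).

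ITGA6 (ENSG00000091409, chr2:172427354-172506459, plus strand) encodes the α6 chain, which pairs with β4 and also with β1 (ITGB1). In L1high replicates 1, 2 and 3 it stood at 283, 286 and 263 CPM, and in the L1low replicates at 426, 402 and 343 CPM. Its rise was 1.41-fold (log2 fold change 0.49, standard error 0.08, edgeR adjusted p = 0.0034), and L1low replicate 3 was the lowest of its group. Genes on the opposite strand overlap ITGA6, among them PDK1-AS1 (log2 fold change 0.47) and ITGA6-AS1 (0.71), at means of 12.7 and 4.13 CPM in L1high cells, and since the strand option of the counting is not given their reads cannot be told apart from those of ITGA6.

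CD151 (ENSG00000177697, chr11:832887-839831, plus strand) encodes a tetraspanin that binds the laminin-binding integrins α6β4 and α3β1. Its level was 164, 151 and 162 CPM in the L1high replicates and 190, 185 and 175 CPM in the L1low replicates. The groups did not overlap, yet the log2 fold change of 0.21 (95% interval 0.06 to 0.35) was not called (edgeR adjusted p = 0.081), and no alternative called it. The gene overlaps POLR2L on the opposite strand, which was not called either (log2 fold change 0.17).

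Of the 2 plakin genes that join the membrane parts to keratin, PLEC was called and DST was not. PLEC (ENSG00000178209, chr8:143915153-143976734, minus strand) encodes plectin, a cytolinker that binds the β4 tail. It stood at 343, 259 and 375 CPM in L1high replicates 1, 2 and 3 and at 434, 494 and 462 CPM in the L1low replicates. The mean was 1.42-fold higher (log2 fold change 0.51, standard error 0.11, edgeR adjusted p = 0.0183), with L1high replicate 2 far below its group. Dropping that replicate gave a log2 fold change of 0.37, and dropping L1high replicate 3, the library left out of the study's own table, gave 0.63. DST (ENSG00000151914, chr6:56457987-56954830, minus strand) encodes dystonin, whose epithelial form BP230 sits beside plectin in the inner plaque. Levels of DST were 207, 200 and 206 CPM in the L1high replicates and 221, 210 and 220 CPM in the L1low replicates. The groups lay side by side without overlap, but the log2 fold change was 0.09 (95% interval -0.05 to 0.22, edgeR adjusted p = 0.43). The counts are per gene, so the epithelial form of DST, the hemidesmosomal form of plectin and the other forms of either gene are summed.

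Of these laminin-332 chains, β3 was called higher in L1low cells and α3 was not. LAMB3 (ENSG00000196878, chr1:209614870-209652425, minus strand), which encodes the β3 chain found in laminins with α3, stood at 355, 291 and 376 CPM in the L1high replicates and at 603, 609 and 606 CPM in the L1low replicates. The 3 L1low libraries were nearly equal and far above the L1high libraries, and the mean rose 1.78-fold (log2 fold change 0.83, standard error 0.09, edgeR adjusted p = 1.14e-04). The microRNA gene MIR4260 lies within LAMB3 on the same strand, and its log2 fold change of 0.88 (117 to 288 counts per library) cannot be told apart from that of its host. LAMA3 (ENSG00000053747, chr18:23689453-23956222, plus strand) encodes the α3 chain in a short and a long form. Its level was 358, 358 and 367 CPM in the L1high replicates and 355, 352 and 376 CPM in the L1low replicates. The groups overlapped throughout, and the log2 fold change of 0.00043 had a 95% interval from -0.13 to 0.13 (edgeR adjusted p = 0.997).

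COL7A1 (ENSG00000114270, chr3:48564073-48595329, minus strand) encodes collagen VII, the anchoring fibril collagen. It stood at 47.6, 31.3 and 51.8 CPM in the L1high replicates and at 99.8, 111 and 103 CPM in the L1low replicates. Every L1low library was far above the L1high libraries, of which replicate 2 was again the lowest. The rise was 2.40-fold (log2 fold change 1.27, standard error 0.15, edgeR adjusted p = 2.74e-04), and dropping L1high replicate 2 gave 1.07 on the log2 scale where dropping L1high replicate 3 gave 1.41. Replicate 2 was the lowest L1high library in 7 of the 9 genes, ITGA6 and LAMA3 being the others. The share of all genes that were lowest in this library was not taken, so whether the count is particular to these genes is not known.

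**Figure D2:**
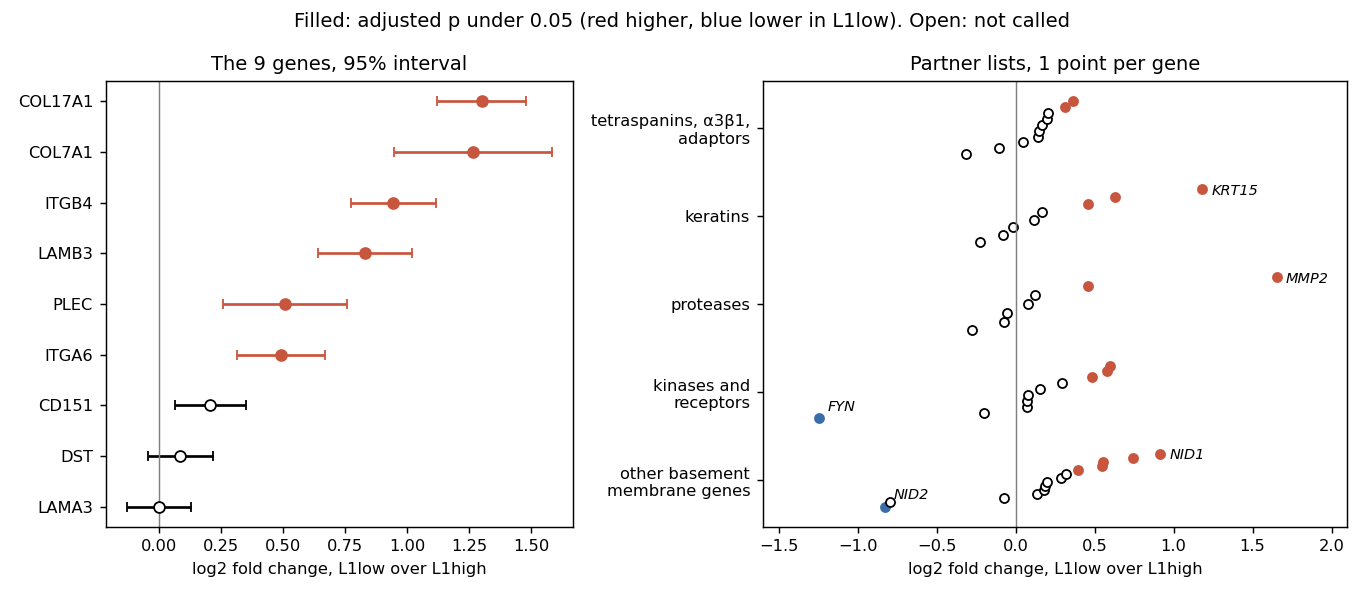
Log2 fold changes (L1low over L1high, horizontal axes) of the 9 genes with 95% intervals (left), and of each gene in 5 lists of partner genes (right). Filled points have an adjusted p under 0.05 and open points do not. The intervals of COL17A1, COL7A1, ITGB4 and LAMB3 start at 0.64 or higher, while those of DST and LAMA3 include 0.

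The stretches upstream of the start sites are shown for the 2 collagens and for LAMA3 and LAMB3. Of these, COL17A1, COL7A1 and LAMB3 were called higher and LAMA3 was not. ITGA6, which was called higher, and DST, which was not called, were searched too, but their windows are not shown. RefSeq windows (GRCh38.p14) were at hand for 6 of the 9 genes, 11 windows in all, and the 250 bases before the start were searched on both strands for the AP-1 letters TGANTCA, the TEAD letters GGAATG, the SP1 letters GGGCGG and the letters TATAAA of the TATA box. No 2 matches overlap in the stretches shown. The letters below run 5′ to 3′ on the strand of the gene, and capitals mark every match.
COL17A1: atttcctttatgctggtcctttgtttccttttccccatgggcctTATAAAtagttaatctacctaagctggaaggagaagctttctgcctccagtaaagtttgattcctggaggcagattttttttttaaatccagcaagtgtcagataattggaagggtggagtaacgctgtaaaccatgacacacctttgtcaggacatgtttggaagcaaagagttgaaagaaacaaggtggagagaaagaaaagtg
COL7A1: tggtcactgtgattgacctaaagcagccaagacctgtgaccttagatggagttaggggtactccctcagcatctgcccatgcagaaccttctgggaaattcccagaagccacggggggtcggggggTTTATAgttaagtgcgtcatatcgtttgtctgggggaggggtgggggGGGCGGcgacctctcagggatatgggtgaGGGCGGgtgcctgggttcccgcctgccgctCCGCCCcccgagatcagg
LAMB3: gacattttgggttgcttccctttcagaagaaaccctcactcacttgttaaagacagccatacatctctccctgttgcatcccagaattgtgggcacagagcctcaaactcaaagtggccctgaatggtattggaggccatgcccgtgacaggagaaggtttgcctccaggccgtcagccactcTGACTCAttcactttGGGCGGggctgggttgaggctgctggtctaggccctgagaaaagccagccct
LAMA3: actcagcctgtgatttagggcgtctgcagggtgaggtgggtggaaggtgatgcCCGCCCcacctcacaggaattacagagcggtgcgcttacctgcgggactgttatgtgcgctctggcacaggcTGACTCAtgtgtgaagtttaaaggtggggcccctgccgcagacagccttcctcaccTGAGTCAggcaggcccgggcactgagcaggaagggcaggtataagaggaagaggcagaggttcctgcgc

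The COL17A1 stretch is chr10:104085881-104086130 and that of COL7A1 is chr3:48595330-48595579, both on the minus strand and outside of the genes. That of LAMB3, chr1:209651375-209651624 on the minus strand, is the innermost of its 3 start sites and lies inside the gene with 20 bases in an exon, and that of LAMA3, chr18:23872770-23873019 on the plus strand, lies inside the gene with 0 bases in an exon. AP-1 letters were found in the LAMA3 stretch, beginning 125 and 69 bases before the start, and in the LAMB3 stretch, beginning 67 bases before the start, and in no other window of these genes. Over 35116 RefSeq windows of this length, 6.57% held them. SP1 letters occurred 3 times for COL7A1 and 1 time each for LAMB3 and LAMA3, beside 42.6% of all windows with any, and the TATA letters of COL17A1 began 206 bases and those of COL7A1 124 bases before the start (10.7% of all windows held them). TEAD letters were in none of the 4 stretches shown (11.9% of all windows). A match is a run of letters and no measured site, and the counts do not say which start sites these cells used. Of the 3 LAMB3 windows only the stretch shown held AP-1 letters, and a link between these letters and the calls was not tested.

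Because the parts of a hemidesmosome work as partners, ratios were also taken between 2 genes of the same library. With 3 against 3 libraries taken as unpaired, an exact permutation test cannot go below p = 0.10, and 5 ratios were tested. ITGB4 over ITGA6 ran from 1.88 to 2.55 in L1high and from 2.73 to 3.37 in L1low libraries, on the scale of CPM. The difference in the mean log2 ratio was 0.46, without overlap between 3 and 3 libraries (exact two-sided permutation p = 0.10, adjusted 0.125). COL17A1 over ITGB4 had the tightest values, a log2 ratio of -2.11 ± 0.02 in L1high and of -1.75 ± 0.05 in L1low cells (SD, n = 3; exact permutation p = 0.10, adjusted 0.125). For PLEC over DST the log2 ratio was 0.66 ± 0.25 in L1high and 1.09 ± 0.13 in L1low cells (SD, n = 3; exact permutation p = 0.10, adjusted 0.125). The largest shift was that of LAMA3 over LAMB3, which ran from 0.974 to 1.23 in L1high and from 0.577 to 0.620 in L1low libraries as a ratio of CPM, a difference of -0.84 in the log2 ratio (exact permutation p = 0.10, adjusted 0.125). These 4 ratios did not overlap between the groups. COL7A1 over COL17A1 did overlap, with a log2 ratio of -1.74 ± 0.22 in L1high and -1.75 ± 0.06 in L1low cells (SD, n = 3; exact permutation p = 0.90), so a difference between the 2 collagens was not detectable against the spread of the L1high libraries.

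**Figure D3:**
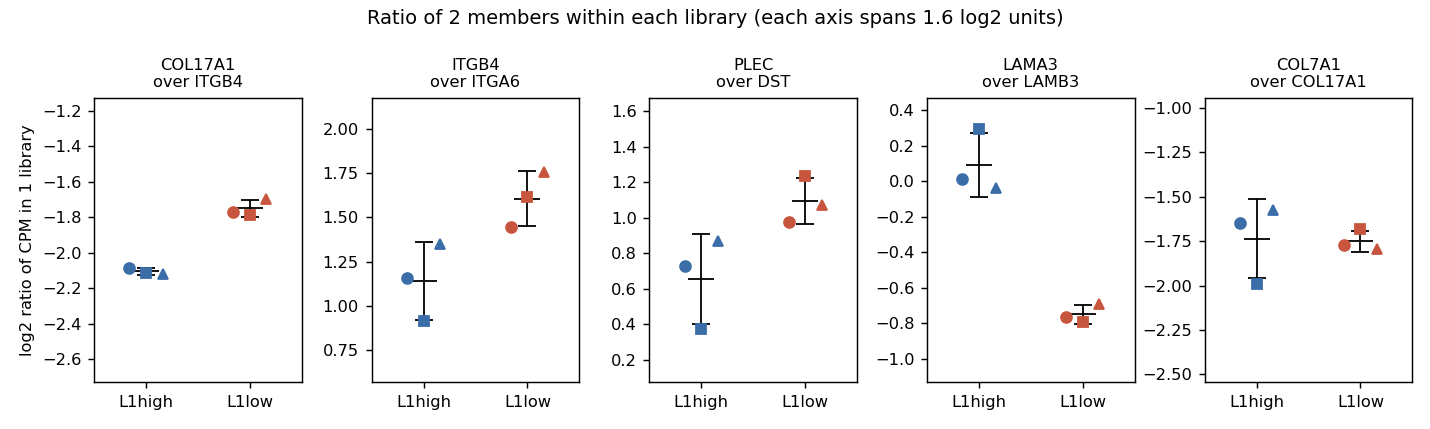
Log2 ratio of the CPM of 2 genes within each library (vertical axes, all of the same span) for 5 pairs, with the mean and SD as black bars. The pairs COL17A1 over ITGB4, ITGB4 over ITGA6 and PLEC over DST lie higher in L1low libraries, LAMA3 over LAMB3 lies lower, and COL7A1 over COL17A1 overlaps.

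Levels of different genes were set side by side as CPM per kb of the gene's merged exons. ITGB4 had the highest level per length in both groups, with a range of 79.8 to 99.4 CPM per kb in L1high and 171 to 182 in L1low libraries, followed by LAMB3 with 62.7 to 81.0 and 130 to 131. The 2 genes overlapped in the L1high libraries and not in the L1low libraries. ITGA6 came next, at 41.6 ± 1.85 and 58.4 ± 6.36 (SD, n = 3), overlapping CD151 (40.8) in L1high cells. COL17A1 stood at 20.4 ± 2.26 in L1high cells, where it overlapped PLEC (19.2 ± 3.54) and lay below LAMA3 (24.9 ± 0.358). In L1low cells it stood at 50.3 ± 1.38, below ITGA6 and overlapping CD151 (47.1 ± 1.92), and PLEC (27.3 ± 1.75) then overlapped LAMA3 (24.9 ± 0.907). COL7A1 (3.91 ± 0.973) and DST (4.24 ± 0.0826) overlapped at the low end in L1high cells, and in L1low cells COL7A1 (9.39 ± 0.523) stood above DST (4.50 ± 0.121). The order depends on the length used, since CD151 rises to 98.8 CPM per kb in L1low cells with the longest transcript in place of merged exons, which puts it above ITGA6 (67.1) and COL17A1 (62.6), and in L1high cells to 85.6, above LAMB3 (79.2). The longest transcript also moves DST, to a mean of 8.27 CPM per kb in L1high cells, where COL7A1 then has 4.70. Levels between genes are also limited by the alignment, because a read over a splice junction is not split by BWA. The canonical transcripts of COL17A1 and COL7A1 have 56 and 119 exons with medians of 63 and 62 bases, while LAMB3 has 23 exons with a median of 156 bases.

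**Figure D4:**
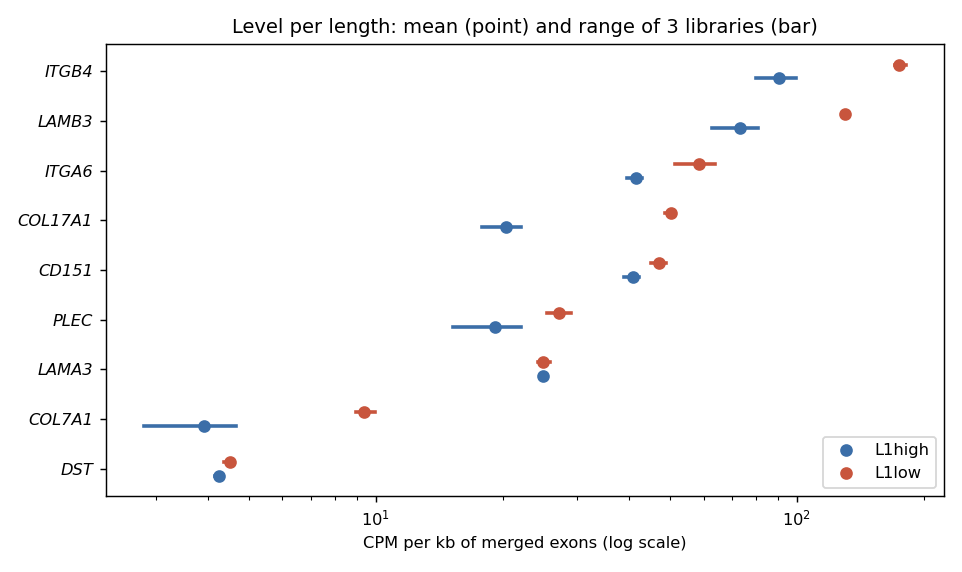
Mean level per length (points) and the range of 3 libraries (bars) of the 9 genes in L1high (blue) and L1low (red) cells, in CPM per kb of merged exons on a log scale. On this length ITGB4 and LAMB3 lead in both groups, and COL17A1 moves from 20.4 to 50.3 CPM per kb. With the longest transcript, which is not drawn, CD151 stands above LAMB3 in L1high cells.

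Around the 9 genes, 5 lists of partners were read in the same test, in which 7.95% of all genes were called in either direction. Of 10 genes for the sister integrin α3β1, tetraspanins and adaptors, 2 were called higher, 0 lower and 8 not, with a median log2 fold change of 0.16. ITGB1, the other β partner of the α6 chain, rose from a mean of 272 to 350 CPM (log2 fold change 0.36, edgeR adjusted p = 0.013), and ITGA3, the α chain of the other laminin-332 receptor, rose from 797 ± 71.1 to 987 ± 35.3 CPM (SD, n = 3; 0.31, edgeR adjusted p = 0.022). Both of these calls were lost without L1high replicate 1 and without L1low replicate 2, where the list had 0 calls. ERBIN, which links the β4 tail to BP230, stood at 69.4 ± 5.43 and 79.5 ± 9.34 CPM (SD, n = 3) and was not called.

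Of 8 keratin genes whose filaments can attach to the plaque, 3 were called higher (KRT15, KRT19 and KRT14, with log2 fold changes of 1.18, 0.63 and 0.46), 0 lower and 5 not, with a median of 0.14. KRT5, the basal keratin that pairs with KRT14 and KRT15, stood at 3028 ± 42.5 CPM in L1high and 3283 ± 123 CPM in L1low cells (SD, n = 3), with a log2 fold change of 0.12 that was not called. Among 7 proteases known to process these proteins, 2 were called higher and 0 lower, with a median of 0.08. These were MMP14 (log2 fold change 0.46), a membrane-bound matrix protease, and MMP2 (1.65), a gelatinase that stood at 2.63 ± 0.380 CPM in L1high and 8.35 ± 0.520 CPM in L1low cells (SD, n = 3). ADAM9, ADAM10 and ADAM17, which shed the outer part of collagen XVII, and BMP1, which trims laminin-332 and procollagen VII, were not called, with log2 fold changes between -0.07 and 0.12. TLL2, MMP9 and ELANE had no row among the genes analysed.

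Of 10 genes for kinases and receptors that signal to β4, 3 were called higher, 1 lower and 6 not, with a median of 0.12. The growth factor receptors EGFR (log2 fold change 0.59, edgeR adjusted p = 1.4e-04) and MET (0.58, edgeR adjusted p = 5.1e-04) and the kinase SRC (0.49) rose, while the kinase FYN fell from 19.6 ± 1.56 to 8.28 ± 0.983 CPM (SD, n = 3; log2 fold change -1.25). PRKCA and PRKCD, protein kinases C that phosphorylate the β4 tail, both had a log2 fold change of 0.07 and were not called. Among 14 other genes of the epidermal basement membrane, 5 were called higher, 1 lower and 8 not, with a median of 0.24. The 3 largest rises were those of NID1 (0.91), the heparan sulfate proteoglycan HSPG2 (0.75) and the collagen IV gene COL4A1 (0.55), and COL4A2 (0.55) and COL4A6 (0.40) were the others called. NID2, the second nidogen, fell from 30.6 ± 0.596 to 17.2 ± 1.64 CPM (SD, n = 3; log2 fold change -0.83, edgeR adjusted p = 3.0e-04), so the 2 nidogen genes went opposite ways. NID1 was at a much lower level, 2.82 ± 0.699 CPM in L1high and 5.37 ± 0.289 CPM in L1low cells (SD, n = 3; edgeR adjusted p = 0.013). The laminin genes LAMA5, LAMB1, LAMB2 and LAMC1, which encode chains of other laminins, were not called, with log2 fold changes between 0.14 and 0.32.

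Over the 6 libraries, the profiles most like that of COL17A1 were those of JAG2, WNT7B, EGR2, TENM2 and KRT15. They were sought among 6963 other genes whose edgeR average log2 CPM, which is not the mean of the 6 log2 values, was 5 or more. Likeness was the root mean square difference of log2 CPM after each gene was centred on its own mean, and it was 0.066, 0.073, 0.074, 0.077 and 0.109 for these genes. The measure reads the same libraries as the comparison, so all 5 are genes with a similar log2 fold change, between 1.18 and 1.39. JAG2, a Notch ligand, showed the dip of L1high replicate 2 as well, with 63.6, 47.2 and 64.4 CPM in L1high and 131, 136 and 140 CPM in L1low replicates. Of the other hemidesmosome genes, COL7A1 came nearest to COL17A1 (difference 0.134, rank 7), then ITGB4 (0.180, rank 18) and LAMB3 (0.235, rank 30), while PLEC, ITGA6, CD151, DST and LAMA3 had ranks from 127 to 3069.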

How the data were processed

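RNA of sorted L3.6pl cells was sequenced as paired-end reads of stranded mRNA libraries. BWA alignment to GRCh38 and featureCounts with Ensembl release 94 were run by the authors, who deposited raw counts per gene. Versions and the strand option of the counting are not given in the sources used here, and the submitters' processing notes also name DESeq2. All 19469 genes exceed 1 CPM in at least 2 libraries, and genes below this level were not analysed here.

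L1low was compared with L1high over all 6 libraries in R 4.3.3 with edgeR 4.0.16: filterByExpr (19467 genes kept), TMM factors, the quasi-likelihood fit and the method of Benjamini and Hochberg. The study's methods name no test for the RNA-seq comparison, and its table leaves out L1high replicate 3 without a reason. The standard error is the log2 fold change divided by the square root of F. CPM values use TMM factors, and ratios use log2 CPM with a prior count of 2. Symbols, coordinates and exons came from GENCODE release 44 (GRCh38), which matched 19344 of the 19469 identifiers. Named genes were the 9 genes, L1CAM, the called genes of each partner list (at most 3 rises and 3 falls), the markers and the 5 genes most like COL17A1. ERBIN, ADAM9, ADAM10, ADAM17, BMP1, KRT5, PRKCA, PRKCD, COL4A2, COL4A6, the 4 other laminin genes and the genes that overlap a member were named after their values were seen. One further gene of the naming rule is not reported here. The members and lists were chosen with earlier results of these data known.

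Tested on simulated data for this comparison (19463 genes, a log2 change of 1 in 200), the fit recovered 168 (84%), with 14 false among 182 calls. The simulated libraries varied independently, and changes smaller than 1 were not simulated, so the 84% does not cover them. Same-numbered libraries deviated together from their group means (correlations of 0.18, 0.11 and 0.44 over 12675 genes, each above the limit of 0.1). By that rule, from the data and not from the labels, the replicate number entered an alternative fit as a block. The main fit and the permutation tests of ratios used no pairing. L1high replicate 2 with L1low replicate 1 (0.23) and L1high replicate 1 with L1low replicate 2 (0.13) were also above 0.1, so the numbers 1 and 2 were not told apart. Within each group no library was a copy of another, since chi-square per degree of freedom was 3.66 to 11.5 between replicates. Libraries of different groups were not compared in this way. Alternatives were each replicate left out, the block, DESeq2 1.42.0, RLE, upper-quartile and library-size scaling, no filter and at least 10 counts in every library.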

Additional observations from a re-analysis of the deposited data

How the results depend on the processing

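Under 13 alternatives, COL17A1, COL7A1, ITGB4, LAMB3 and ITGA6 were called in all 13 and PLEC in 11, while DST, CD151 and LAMA3 were called in none. The settings of filter and scaling could change little, since filterByExpr kept 19467 of 19469 genes and TMM factors lay between 0.984 and 1.007. Leaving out 1 library moved the log2 fold change from 1.21 to 1.37 for COL17A1, from 1.07 to 1.41 for COL7A1, from 0.86 to 1.02 for ITGB4, from 0.73 to 0.92 for LAMB3, from 0.42 to 0.59 for ITGA6, from 0.37 to 0.63 for PLEC, from 0.17 to 0.25 for CD151, from 0.07 to 0.11 for DST and from -0.019 to 0.021 for LAMA3. The number of these genes called higher ran from 5 to 6. LAMA3, at 0.00043, changed sign with DESeq2 (-0.0011), RLE factors (-0.0011), library size only (-0.011), the replicate block (-0.00017), and without L1high replicate 1 (-0.0054), L1high replicate 2 (-0.0052) or L1low replicate 3 (-0.019), always far from a call.

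With the replicate number as a block the number of genes called was 2363, with 1143 of them lower, and no call among the 9 genes changed. Without 1 library, from 627 to 1473 genes were called, 393 to 859 higher and 234 to 614 lower, the lowest without L1low replicate 2 and the next without L1high replicate 1 (674), and the cause was not tested. Fewer libraries enter these fits. Calls in the partner lists then ran from 0 to 2 for tetraspanins, α3β1 and adaptors and from 3 to 7 for other basement membrane genes (3 without L1low replicate 2). The log2 ratio of COL7A1 over COL17A1 differed by -0.14 to 0.069 between the groups when 1 library was left out. With the longest transcript as the length, levels in L1low cells were 62.6 CPM per kb for COL17A1, 67.1 for ITGA6, 201 for ITGB4, 8.78 for DST, 30.4 for PLEC, 98.8 for CD151, 33.9 for LAMA3, 141 for LAMB3 and 11.3 for COL7A1. At a log2 CPM limit of 3, 4 of the 5 genes most like COL17A1 were the same.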
